A study of Mus musculus with 2 samples.

Results

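The regions described here are stretches of open chromatin in mouse regulatory T cells that lie away from gene starts and carry the DNA site bound by the transcription factor AP-1. They were chosen by position and sequence, not by strength. A region of replicate 1 was taken where a region of replicate 2 overlapped it by at least 1 bp, where its midpoint lay over 1 kb from every annotated start site, and where TGACTCA, which reads TGAGTCA on the opposite strand, stood within 100 bp of its summit. Of 46335 distal regions found in both libraries, 8753 held the site, a share of 18.9%, and 37582 did not. The 2 deposited lists held 68903 regions for replicate 1 and 78262 for replicate 2.

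AP-1 is a pair of basic leucine zipper proteins, commonly a Jun protein with a Fos protein, and this near-palindrome is its classic target. In T cells, Jun and Fos rise when the antigen receptor signals through MAP kinases and calcium, and AP-1 binds beside NFAT at cytokine genes. BATF, another leucine zipper protein, pairs with Jun and binds beside the factor IRF4, while BACH2, a repressor that restrains effector programmes in regulatory T cells, recognises the same core letters. The site is therefore shared by many proteins, and its presence does not say which of them, if any, was bound.

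The labels give ATAC-seq, in which a transposase inserts into accessible DNA, on primary regulatory T cells of strain C57BL/6NJ, with age and sex not given. The design held 1 group with biological replicates 1 and 2, so no treated or control cells were set against each other, and differences between sets of regions carry no p-value because regions are not replicates. The same donor identifier stands on both libraries, so the spread between them may be technical. A protocol for differentiation of CD4 T cells is linked but was not read, the names inside the lists give 72 hours and the words ASTARR and insert, and it was not established whether these are plain ATAC-seq lists.

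The cell label was set against promoters of marker genes, counting a gene as open where both libraries had a region within 1 kb of one of its starts, as held for 64.4% of all 21911 protein-coding genes. All 7 regulatory T cell markers (Foxp3, Il2ra, Ctla4, Ikzf2, Ikzf4, Tnfrsf18 and Icos) and all 7 pan T cell markers had such a region. So did 3 of 6 B cell markers (Cd79b, Pax5 and Ebf1), 1 of 6 myeloid markers (Cd14), 1 of 4 neuronal markers (Rbfox3), 0 of 4 hepatocyte markers and 0 of 4 epithelial markers. The part that other cells may have in the AP-1 regions was not tested.

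The strongest members showed the site in otherwise unlike DNA. Strength here is the −log10 q that the authors' peak caller gave each region, and the 4 sequences below are among the 10 members with the best mean rank in both libraries. They come from the + strand of mm10 (RefSeq GRCm38), and capitals mark the AP-1 site.
Zfp869, chr8:69716964-69717064: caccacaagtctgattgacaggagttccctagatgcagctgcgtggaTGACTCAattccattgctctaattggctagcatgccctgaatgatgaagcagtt
Specc1l, chr10:75222617-75222717: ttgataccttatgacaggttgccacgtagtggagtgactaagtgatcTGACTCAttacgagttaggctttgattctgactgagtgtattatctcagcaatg
Slc39a10, chr1:46864331-46864431: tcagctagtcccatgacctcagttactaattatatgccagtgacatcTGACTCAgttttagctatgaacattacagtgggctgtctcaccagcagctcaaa
Irf8, chr8:120715443-120715543: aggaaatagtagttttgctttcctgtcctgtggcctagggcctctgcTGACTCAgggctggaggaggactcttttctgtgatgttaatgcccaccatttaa
The region near Zfp869, chr8:69716415-69717445, lay at −6.21 kb from the start, where a minus sign means upstream, and its −log10 q was 530.5 (replicate 1) and 791.9 (replicate 2). The one in an intron of Specc1l (chr10:75222064-75223132) had 392.9 and 631.6, and the one in an intron of Slc39a10, a zinc importer (chr1:46863768-46864904), had 385.3 and 580.3. The region at −20.5 kb from Irf8, a transcription factor of the interferon regulatory family, spanned chr8:120715089-120716629 and had 349.4 and 505.3. Their sites stood 53, −62, −18 and 23 bp from the replicate 1 summits, in that order, so none of these 4 sites was at the summit itself.

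Some members held the site several times. Sequences of 3 members with 3 or 4 copies in the 201 bp window around the summit show the spread of the copies, with each copy in capitals, again from the + strand of mm10.
Msra intron, chr14:64368345-64368545: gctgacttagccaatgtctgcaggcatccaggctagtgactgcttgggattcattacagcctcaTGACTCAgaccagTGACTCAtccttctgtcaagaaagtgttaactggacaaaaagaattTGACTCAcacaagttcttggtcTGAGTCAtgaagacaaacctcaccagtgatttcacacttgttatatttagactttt
Jazf1 intron, chr6:52825656-52825856: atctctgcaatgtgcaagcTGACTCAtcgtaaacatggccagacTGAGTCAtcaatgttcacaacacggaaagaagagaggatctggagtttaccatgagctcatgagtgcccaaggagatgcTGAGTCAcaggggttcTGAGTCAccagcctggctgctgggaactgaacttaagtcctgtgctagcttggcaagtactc
Psd3 intron, chr8:68157282-68157482: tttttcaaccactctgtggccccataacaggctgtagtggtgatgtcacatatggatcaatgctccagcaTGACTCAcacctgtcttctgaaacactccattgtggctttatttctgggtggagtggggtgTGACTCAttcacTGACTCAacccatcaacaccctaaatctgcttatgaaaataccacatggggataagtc
The Msra and Jazf1 windows each held 4 copies, and the Psd3 window held 3. The −log10 q was 46.1 and 70.2 at Msra, 33.1 and 49.7 at Jazf1, and 255.4 and 335.5 at Psd3 in replicates 1 and 2. Their percentiles among distal regions in replicate 1 were 77.7, 68.3 and 99.6. The other 2 members with 4 copies were weaker, with 14.6 and 33.5 near Twsg1 and 11.8 and 14.8 near Fabp5.

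In other members a partner site stood at a set distance. The 3 composite elements looked for were TTTC with 4 bases before the AP-1 site and GAAA directly before it, both known from BATF with IRF4, and GGAAA with 3 bases before it, known from NFAT with AP-1. Capitals mark the AP-1 site and the partner, which is read on either strand, so that TTTC before the site is GAAA after it on the other strand.
TTTC type, upstream of Ywhaq, chr12:21451567-21451667: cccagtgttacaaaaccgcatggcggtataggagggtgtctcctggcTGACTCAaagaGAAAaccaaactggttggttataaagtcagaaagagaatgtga
TTTC type, near Lclat1, chr17:73263169-73263269: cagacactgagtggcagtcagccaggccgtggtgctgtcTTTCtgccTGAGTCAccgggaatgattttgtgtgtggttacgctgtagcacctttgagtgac
GAAA type, Polk intron, chr13:96487395-96487495: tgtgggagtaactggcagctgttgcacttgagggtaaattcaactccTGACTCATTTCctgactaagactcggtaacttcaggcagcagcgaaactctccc
GAAA type, Rnf157 intron, chr11:116406535-116406635: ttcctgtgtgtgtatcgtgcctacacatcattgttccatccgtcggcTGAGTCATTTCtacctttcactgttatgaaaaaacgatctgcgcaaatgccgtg
NFAT type, near Chd2, chr7:73595391-73595491: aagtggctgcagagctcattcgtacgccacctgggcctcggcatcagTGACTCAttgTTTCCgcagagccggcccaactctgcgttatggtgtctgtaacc
NFAT type, Def6 intron, chr17:28211990-28212090: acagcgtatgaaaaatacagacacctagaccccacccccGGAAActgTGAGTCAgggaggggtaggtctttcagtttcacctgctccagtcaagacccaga
These are the best ranked members of their element. On the other strand the Polk sequence reads GGAAA directly before the site, so its GAAA is also part of the NFAT-type letters. The −log10 q in replicates 1 and 2 was 212 and 316.3 near Ywhaq, 222.2 and 288.6 near Lclat1, 301.1 and 420.4 at Polk, and 237.3 and 438.5 at Rnf157. It was 259 and 362.3 near Chd2, and 167.3 and 239.4 at Def6, which encodes a signalling protein of lymphocytes.

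Members at loci that define or serve regulatory T cells are shown next, because their values are given by gene further on. Capitals mark the AP-1 site on the + strand of mm10.
Ctla4, chr1:60898774-60898874: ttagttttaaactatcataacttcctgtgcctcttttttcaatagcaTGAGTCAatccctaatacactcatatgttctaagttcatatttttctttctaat
Icos, chr1:60975255-60975355: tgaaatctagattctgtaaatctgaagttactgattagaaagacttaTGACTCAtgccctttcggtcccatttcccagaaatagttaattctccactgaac
Il10, chr1:131010657-131010757: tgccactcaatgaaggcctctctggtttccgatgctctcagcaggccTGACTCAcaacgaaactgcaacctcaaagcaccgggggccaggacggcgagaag
Il2ra, chr2:11691314-11691414: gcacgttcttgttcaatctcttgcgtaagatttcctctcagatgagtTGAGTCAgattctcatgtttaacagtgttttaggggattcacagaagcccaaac
Foxp3 locus, chrX:7565541-7565641: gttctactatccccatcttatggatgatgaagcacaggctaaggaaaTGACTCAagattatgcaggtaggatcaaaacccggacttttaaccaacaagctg
Tnfrsf1b, chr4:145254641-145254741: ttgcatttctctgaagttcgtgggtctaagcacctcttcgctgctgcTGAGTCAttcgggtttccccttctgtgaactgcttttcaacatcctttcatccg
Smad3, chr9:63706540-63706640: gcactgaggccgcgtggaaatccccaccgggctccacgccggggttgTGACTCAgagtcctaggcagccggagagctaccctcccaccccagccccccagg
Il9, chr13:56476930-56477030: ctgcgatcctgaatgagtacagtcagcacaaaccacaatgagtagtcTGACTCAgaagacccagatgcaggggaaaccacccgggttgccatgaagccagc
The Il10 sequence also holds the TTTC composite, visible on this strand as gaaa 4 bases after the capitals. The Foxp3 locus sequence holds the GAAA composite, with gaaa directly before the capitals. It reads ggaaa there, so this gaaa is also part of the NFAT-type letters.

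The AP-1 site was more common in distal open chromatin than in the genome at large. Counted from replicate 2 regions and summits, 8957 of 46072 distal regions held it, or 19.4%, and the mean over the libraries was 19.2% ± 0.389 (SD, n = 2). Of all 13171266 genome tiles of 201 bp, 3.12% held the site, and 3.34% did when tiles were weighted to the GC content of the distal regions. The distal share was 6.06 times the plain genome share and 5.65 times the weighted one. An excess over the weighted genome share was not particular to AP-1. The ratio was 12.57 for the core of the insulator protein CTCF, 5.50 for a BCL6 motif and 5.06 for a strict STAT motif. It was 3.76 for an ETS motif and 1.01 for an NFAT motif. The AP-1 letters in reverse order, a control with overlaps of AP-1 sites kept, had 1.64. The excess of the AP-1 site was present across base composition. In 5 classes of distal regions from low to high GC, 21.9%, 21.9%, 20.4%, 17.8% and 12.5% held the site, which was 7.22, 6.02, 5.68, 5.03 and 4.28 times the weighted genome share.

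Regions at start sites held the site less often. It stood in 1029 of 17837 replicated regions within 1 kb of a start (5.77%) in replicate 1 and in 1038 of 17755 (5.85%) in replicate 2, which was 2.64 and 2.67 times the weighted genome share of 2.19% in both libraries. Distal regions had a median GC content of 47.8%, against 62.2% for those at start sites. Distal regions found in replicate 1 alone held the site in 528 of 4144 cases (12.7%), while those of replicate 2 alone held it in 2420 of 12804 (18.9%). The libraries thus differed in the regions that they did not share. The median −log10 q of these was 3.76 in the replicate 1 list and 5.77 in the replicate 2 list. Shared distal regions had 18.98 and 28.48. The part of strength and list size in the difference was not tested.

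Sites with a single changed base were less frequent, relative to the genome, than the full site. Each of the 19 ways to change a single base of TGACTCA was counted in the same windows. The nearest to the full site was TGACTAA, in 5.63% of distal regions and 2.80 times its weighted genome share. TTACTCA had 2.46 times its genome share, TGAATCA 2.18 times and TGACTCG 2.07 times. At the other end, GGACTCA had 0.891 times and TGACCCA 0.889 times theirs. In each of the 19 cases the ratio was below the 5.65 of the full site. Replicate 2 summits gave the same order at the top, with 2.84, 2.53, 2.25 and 2.02 for the first 4. Single windows can hold both the full site and a variant, and these were not separated.

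Members were stronger, by median, than distal regions without the site. The median −log10 q of members was 23.6 and 38.2 in replicates 1 and 2, and that of distal regions without the site 18.1 and 27.2. The ratio of medians was 1.31 in replicate 1 and 1.41 in replicate 2, a mean of 1.36 ± 0.0710 (SD, n = 2). The sets overlapped widely: the 10th and 90th percentiles in replicate 1 were 5.88 and 99.4 in members, against 4.63 and 78.6 in the others. The deposited signal had medians of 6.92 and 7.35 in members, against 6.12 and 6.32 without the site, a ratio of 1.15 ± 0.0238 (SD, n = 2). Widths were close, at medians of 581 and 660 bp in members against 570 and 645 bp in the others.

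The difference in strength was not limited to one base composition, width or chromosome among those examined. The median −log10 q of members was above that of regions without the site in both libraries in 5 of 5 GC classes, in 5 of 5 width classes and on 20 of 20 chromosomes. By chromosome the ratio ran between 1.15 and 1.74 over both libraries. The share of distal regions with the site lay between 17.5% and 20.9% on these chromosomes. By GC class the replicate 1 medians were 19.4, 22.5, 24.6, 27.8 and 29.0 in members, against 13.6, 16.5, 18.4, 19.4 and 22.8 in regions without the site.

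**Figure D1:**
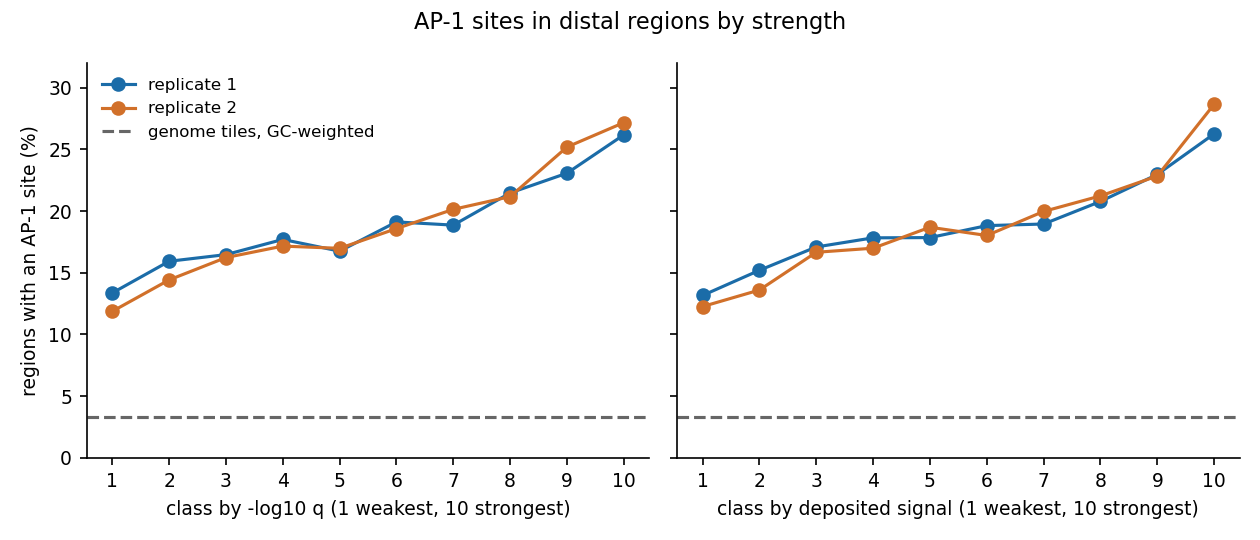
Share of distal replicated regions with an AP-1 site (y axis, percent) in 10 classes of like size from weakest to strongest by −log10 q (left) and by deposited signal (right), with points for replicates 1 and 2 and a dashed line for the GC-weighted genome share of 3.34%. In the left panel the share is 13.4% and 11.9% in the weakest class and 26.2% and 27.2% in the strongest.

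Seen the other way, stronger distal regions held the site more often. In the weakest of 10 classes by −log10 q, 13.4% of regions held it in replicate 1 and 11.9% in replicate 2, and in the strongest class 26.2% and 27.2% did. By signal the weakest class had 13.2% and 12.3%, and the strongest 26.3% and 28.7%. The plot of share by strength shows that even the weakest class lay above the genome share. The increase was not strictly stepwise: by −log10 q in replicate 1, the classes numbered 4 to 7 had 17.7%, 16.8%, 19.1% and 18.9%.

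Members with 2 or 3 copies had higher values than members with 1. A single site was present in 7935 members, 2 in 766, 3 in 48 and 4 in 4. The 818 members with 2 or more had a median −log10 q of 31.2 and 52.1 in replicates 1 and 2, against 23.1 and 37.0 in members with 1. The 4 members with 4 copies had 23.8 and 41.6, close to those with 1. In members with 2 or more, the median signal was 8.12 and 8.78, against 6.84 and 7.20 with 1. Median width was 586.5 bp with 2 or more sites and 581 bp with 1. Neighbouring sites in a window lay a median of 42 bp apart in 874 pairs, with 111 pairs under 10 bp. The commonest gaps were 36 bp in 21 pairs, 9 bp in 20 and 3 bp in 17, so no single spacing held more than a small part of the pairs.

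Sites gathered near the summit, with a dip at its centre. The nearest site lay within 20 bp of the replicate 1 summit in 2756 members (31.5%) and within 20 bp of the replicate 2 summit in 2540 (29.0%), a mean of 30.3% ± 1.75 (SD, n = 2). Taking every site around the distal summits of each library, 29.1% and 28.0% lay within 20 bp, where an even spread over the window would put 21.03%. In bins of 10 bp around replicate 1 summits there were 785 and 794 sites to either side of the central bin, 507 in the central bin, and 193 and 219 in the outermost bins. Replicate 2 summits gave 740 and 793 beside the centre, 530 in it, and 203 and 242 at the edges. The dip in the central bin was thus present around the summits of both libraries.

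**Figure D2:**
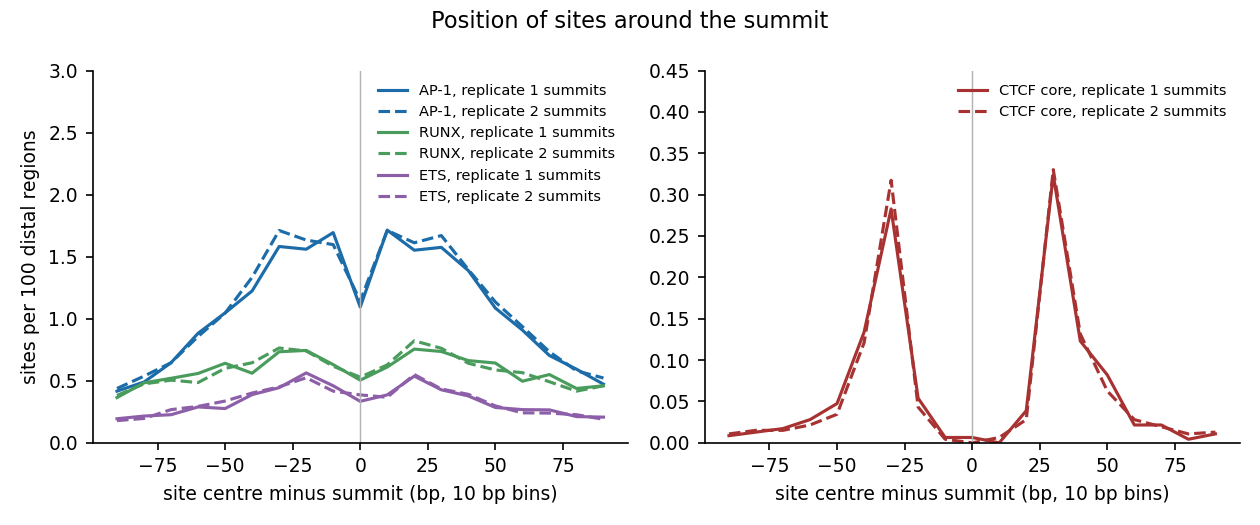
Sites per 100 distal replicated regions (y axis) by distance of the site centre from the summit in bins of 10 bp (x axis), for AP-1, RUNX and ETS sites (left) and the CTCF core (right), with solid lines for replicate 1 summits and dashed lines for replicate 2. AP-1 sites have 1.09 per 100 regions in the central bin and 1.71 in the next bin to the right in replicate 1, while CTCF cores stand about 30 bp to either side of the summit.

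Other motifs had other profiles around the same summits. ETS sites had 28.2% and 27.9% within 20 bp, close to the AP-1 values, while RUNX sites had 23.2% and 23.0%. NFAT sites stood off the summit, with 12.6% and 13.8% within 20 bp. The core of the insulator protein CTCF was rarer still there, with 1.76% and 1.60% within 20 bp, although its median distance of 32 bp was close to the 34 bp of AP-1 sites. The SMAD motif GTCTAGAC had more within 20 bp than AP-1 sites, at 31.4% and 34.3% of 204 and 210 sites. The reversed AP-1 letters had 27.3% and 29.2%, with occurrences that overlap an AP-1 site kept in. Of the members, 1000 held these letters and 381 held them clear of an AP-1 site. The AP-1 shares were thus above those of NFAT and CTCF sites, close to those of ETS sites and of the control, and below those of the SMAD motif. RUNX sites also had fewer in the central bin than in the adjacent ones, with 234 against 292 and 283 around replicate 1 summits and 245 against 286 and 291 around replicate 2 summits. ETS sites had 155 against 213 and 179 in replicate 1, but 179 against 193 and 170 in replicate 2. The reversed AP-1 letters, a control, had 188 against 177 and 189, and 215 against 194 and 215, with no dip. These counts also keep the overlaps, so the control is not independent of the AP-1 sites. No source used here says how transposase offsets were treated, and their part in the dip was not tested.

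A site nearer the summit did not go with a higher −log10 q. The 2756 members with a site within 20 bp of the replicate 1 summit had medians of 21.5 and 34.7. Members whose nearest site centre lay 88 to 97 bp from the summit numbered 296 and had a median −log10 q of 26.5 and 43.6. Just outside, 288 regions with the centre up to 10 bp farther out had 28.5 and 42.2. At the distal limit, 53 members with midpoints 1001 to 1100 bp from a start had 24.7 and 37.7, and 57 regions with the site at 901 to 1000 bp had 23.6 and 27.5. The summits of the 2 libraries did not always coincide. They differed by a median of 19 bp in members and 23 bp in regions without the site, and 7995 members (91.3%) also had a site within 100 bp of the replicate 2 summit.

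The bases beside the site differed between members and the rest of the genome. The 9627 sites in members were set against the 407338 genome sites outside any region of either library, each read as TGAGTCA. These sets were not matched for base composition or repeats, and the part of these was not tested. Farther off, 10 bases before the site, T still stood in 27.4% of member sites and 30.6% outside. Directly before the site, A stood in 32.7% of member sites and 23.5% of sites outside, and T in 12.7% and 23.5%. Directly after it, T stood in 33.3% of member sites and 26.4% outside, C in 32.6% and 23.7%, and A in 9.22% and 19.8%. The full 9-base form ATGAGTCAT made up 990 member sites (10.3%), against 5.79% outside. Read from either strand, 79.3% of member sites had no T directly before the site, against 61.7% of sites outside.

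These flanks went little with strength among members. With no T before the site in either reading, members with a single site had a median −log10 q of 23.2 and 37.1. With T in 1 reading they had 22.5 and 36.6, and with T in both they had 24.6 and 34.3 in 92 regions. With A before the site in both readings the medians were 22.5 and 36.7. Sites in repeat-masked DNA were rarer in members, at 7.08% of sites against 18.5% outside regions. The windows themselves did not differ in this, with a mean masked share of 12.4% both in members and in regions without the site.

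Partner elements were more frequent in members at particular spacings. Directly before the AP-1 site, GAAA stood in 303 member sites (3.15%), against 1.61% of sites outside regions, a ratio of 1.96 where the median over 0 to 30 bp was 1.13. The reverse element TTTC with a gap of 4 bp stood at 218 member sites (2.26%), against 1.28% outside, a ratio of 1.77 where the median was 1.02. Both are spacings of the BATF and IRF composite. GGAAA, the core letters of NFAT sites and of many ETS sites, stood directly before 116 member sites (1.21%), against 0.338% outside, and this ratio of 3.57 was the highest of the spacings counted. The NFAT spacing of 3 bp came next for GGAAA, with 62 member sites (0.644%), against 0.302% outside, a ratio of 2.13. GGAAA directly before the site also counts as GAAA there, so the 303 GAAA sites include these 116. A alone was also more common directly before member sites read as TGAGTCA, at 32.7% against 23.5% outside. Its part in the ratios at a gap of 0 was not tested. Member and outside sites were not matched for base composition or repeats, and the part of these was not tested either. At a gap of 1 bp TTTC was rarer in members, at 55 sites (0.571%), against 1.31% outside, a ratio of 0.437. The reverse form TTTCC had its highest ratio of 1.74 at 24 bp.

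**Figure D3:**
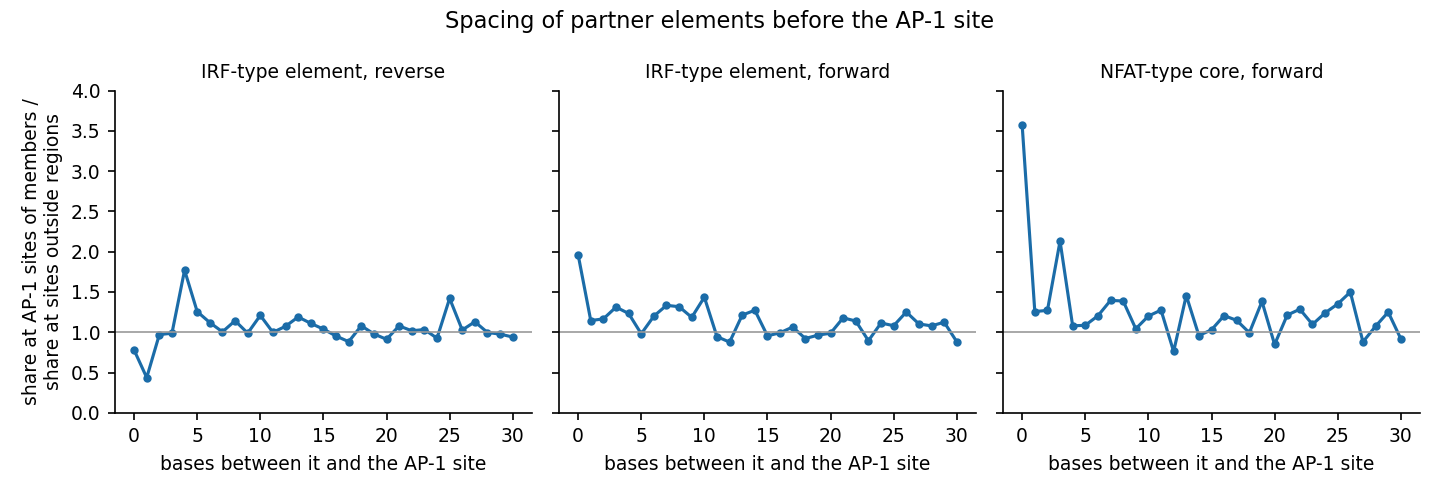
Share of AP-1 sites in members over the share of AP-1 sites outside regions that have a partner element ending a given number of bases before them (y axis, ratio), by the number of bases between (x axis), for IRF-type elements in reverse (left) and forward (middle) form and the forward NFAT-type core (right). The highest points are 1.77 at 4 bases, 1.96 at 0 bases and 3.57 at 0 bases.

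The composites were few among members and differed modestly in strength. At least 1 of the 3 elements stood in 568 members (6.49%). The 216 members with the TTTC form (2.47%) had a median −log10 q of 29.0 and 43.9, against 23.6 and 38.0 in the other members. The 299 with the GAAA form (3.42%) had 24.3 and 39.6, against 23.6 and 38.1. The 60 with the NFAT form (0.686%) had 23.2 and 35.2, against 23.6 and 38.3. Members with the TTTC form were thus the ones with the larger difference, and those with the NFAT form were not above the other members in either library.

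Other motifs were mostly as common or less common in members than in distal regions without the site. Motifs were sought on both strands, and occurrences that overlapped an AP-1 site were left out. With replicate 1 summits this can only lower the share of members, since the other regions hold no AP-1 site. With overlaps kept, the replicate 1 ratio was 0.835 for the ETS motif below and 1.555 for the T-box motif AGGTGTGA. Without them it was 0.778 and 1.041. The ratios of the CTCF core and the NF-kB motif did not change. Of the motifs counted, the lowest ratio was that of the CTCF core AGGGGGCGC, in 20 members (0.229%) and 544 regions without the site (1.45%), a ratio of 0.158 with replicate 1 summits and 0.168 with replicate 2 summits. Weighted to equal GC the ratio was 0.210. The NF-kB motif GGGNNTTCC, bound by the Rel proteins of T cell activation, stood in 4.58% of members and 6.71% of the others, with ratios of 0.683 and 0.687. The ETS motif CAGGAAGT stood in 4.92% and 6.33%, a ratio of 0.778 and 0.808. The RUNX motif TGTGGTT stood in 9.12% and 10.9%, a ratio of 0.835 and 0.862. RUNX and ETS proteins are broad regulators of T cell enhancers.

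Base composition bore on motifs rich in G and C. The SP motif GGGCGGG had a ratio of 0.514, and of 0.780 at equal GC. Members had a median GC content of 46.3% around the summit, against 47.8% without the site. Several motifs were nearly as common in members as in the others. The NFAT motif TGGAAAA stood in 5.11% and 5.02%, a ratio of 1.02 and 0.987, and the forkhead motif TGTTTAC in 2.35% and 2.37%, a ratio of 0.994 and 0.988. The motif TAGGTCA of the ROR receptors had 2.66% and 2.29%, a ratio of 1.16 and 1.15. The letters of the AP-1 site in reverse order, counted as a control, had a ratio of 1.13 and 1.12, so departures of that size were seen for a string that is no known site.

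**Figure D4:**
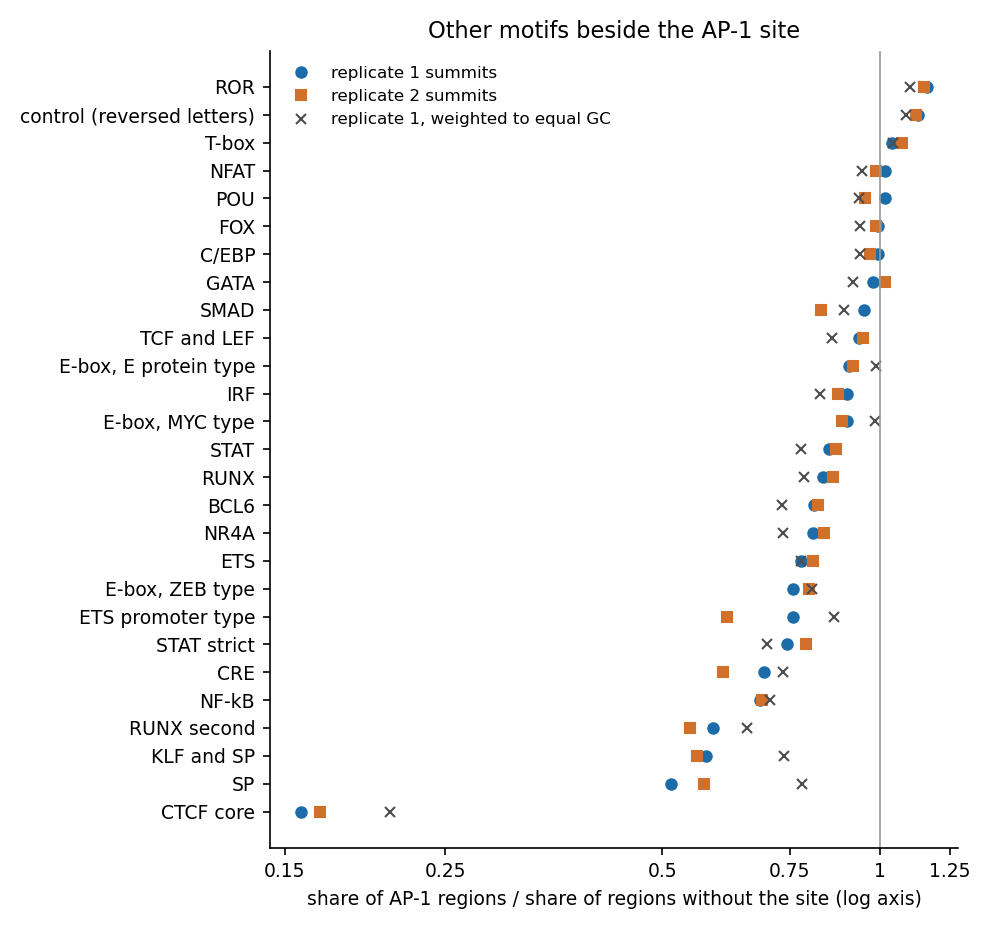
Ratio of the share of AP-1 members with a motif to the share of distal regions without the AP-1 site that have it (x axis, log scale), for motifs in at least 200 distal regions (y axis), leaving out occurrences that overlap an AP-1 site. Circles and squares use replicate 1 and replicate 2 summits, crosses replicate 1 at equal GC; the CTCF core is lowest at 0.158, and most motifs lie below 1.

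Members with certain further motifs were stronger than members without them. Members with an NF-kB motif had a median −log10 q of 39.2 and 66.1, against 23.2 and 37.4 in members lacking it. Those with the ETS motif had 33.7 and 52.0, against 23.5 and 37.6. The ETS medians are of 463 members, with motifs that overlap an AP-1 site kept, of which 431 held the motif clear of one. Those with the strict STAT motif TTCCNGGAA, the target of STAT5 downstream of interleukin 2, had 35.8 and 62.9, against 23.6 and 37.7. These motifs were thus rarer in members but went with stronger members where present. Members with the NFAT motif had 19.03 and 31.8, against 24.0 and 38.7 in members without it.

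Regions with no AP-1 site showed the same directions at lower values. There the NF-kB motif went with 22.5 and 34.7, against 17.7 and 26.5 where it was lacking. The ETS motif went with 21.5 and 30.8, against 17.8 and 26.7, and the NFAT motif with 15.5 and 23.9, against 18.3 and 27.4. Whether the AP-1 site and these motifs add to each other was not tested.

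Members lay slightly farther from start sites. Their median distance to the nearest start site was 10.6 kb, against 9.81 kb for distal regions without the site, and to the nearest start of a protein-coding gene 17.6 kb against 15.6 kb. With distance the share with the site was 17.4% at 1 to 5 kb, 19.04% to 20 kb, 19.98% to 50 kb, 20.9% to 100 kb and 21.1% beyond that. Introns held 58.0% of members and 54.7% of the others, intergenic DNA 37.7% and 38.9%, and exons 4.30% and 6.33%. Members also lay near each other somewhat more often. Another member stood within 20 kb of 33.2% of members, and a member stood within 20 kb of 29.7% of regions without the site.

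At least 1 member lay within or up to 10 kb beyond the body, taken as the locus, of 4477 of 21911 protein-coding genes (20.4%). Long genes with many open regions held the most. Lpp, which encodes an adhesion protein, had 13 members among 35 distal regions, Atxn1 12 of 29, and Atg10, an autophagy enzyme gene, 10 of 22. Bach2 had 10 of 47, Foxp1, a forkhead factor of quiescent T cells, 10 of 59, and Inpp4b, a phosphoinositide phosphatase gene, 10 of 53. Kcnq5 had 10 of 30 and Rabgap1l 10 of 34. Beside the 18.9% of all distal regions, the shares were 45.45% at Atg10, 41.4% at Atxn1, 37.1% at Lpp, 33.3% at Kcnq5 and 29.4% at Rabgap1l. Bach2 with 21.3%, Inpp4b with 18.87% and Foxp1 with 16.95% lay near that share. Gm20388 had 35 of 209 (16.75%) and Fgfr2 12 of 78 (15.38%), but these are gene models of 4435 and 2961 kb that span other genes.

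Among genes with 10 or more distal regions, chosen after their values were seen, the share ran from 7 of 12 at Mast4 to 0 of 19 at Ikzf1, which encodes the lymphoid factor Ikaros. Such shares rest on small counts.

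At genes that define regulatory T cells, the share of distal regions with the site was somewhat below that of distal regions in general. The count is small, and the difference was not tested. This gene list and those below were written with earlier results of these data known. Over the 28 genes of the regulatory T cell core list, 20 of 141 distal regions (14.2%) had the site, against the 18.9% of all distal regions. At least 1 member lay at 14 of the 28 genes (50%), against 20.4% of all protein-coding genes. The 20.4% also covers genes with few or no distal regions, so these gene shares were not matched for the number of distal regions. Foxp3, the lineage factor, had 1 member among 5 distal regions at its locus, chrX:7565489-7565735, which lay within the neighbouring gene Ppp1r3f. Its −log10 q was 7.38 and 11.96, and its signal of 2.32 and 2.37 stood at percentiles 1.13 and 1.47 of the distal regions. Il2ra, the interleukin 2 receptor alpha chain, had 1 of 16, in an exon at chr2:11691239-11691665, with 16.2 and 20. The signal of this Il2ra region was 2.22 and 2.06, at percentiles 0.781 and 0.492. Ikzf2, which encodes Helios, had 0 of 13, and Tnfrsf18, which encodes GITR, had no distal region at its locus.

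Other genes of that list had members over a wide range of strength. Ctla4, an inhibitory receptor, had 1 of 7, in an intron at chr1:60898265-60899595, which held 2 sites and had a −log10 q of 94.6 and 153.1. Icos, a costimulatory receptor, had 1 of 4, at chr1:60974174-60976053, at −2.81 kb from the start, with 54.3 and 81.1. Il10, an inhibitory cytokine, had 1 of 3, at chr1:131010272-131010962, at −9.23 kb, with 49.4 and 75.3. Nrp1, a surface receptor, had 4 of 14, with −log10 q between 4.63 and 142.9 in replicate 1 and between 11.6 and 221.6 in replicate 2. Tnfrsf1b, which encodes the tumour necrosis factor receptor TNFR2, had 3 of 9, the strongest at chr4:145254173-145255056 with 211.8 and 325.8.

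Distal regions at genes of AP-1 partners and relatives held the site more often than the 18.9% of all distal regions. Because these lists too were written with earlier results known, their shares only describe the data. The AP-1 partner list, with NFAT, ETS, RUNX and IRF factors, Smad3 and Stat3, had 46 members among 167 distal regions (27.5%). At least 1 member lay at 11 of its 15 genes (73.3%), against 20.4% of all protein-coding genes, again not matched for the number of distal regions. Nfatc2, the NFAT factor NFAT1, had 9 of 20, with replicate 1 values between 5.85 and 47.7. Runx2 had 8 of 18, Runx1 7 of 24, Ets1 7 of 26 and Fli1 4 of 15. Smad3, which carries TGF-beta signals, had 4 of 11, all with −log10 q of 45.4 or more in replicate 1, and its strongest, chr9:63706169-63707021, had 244.3 and 320.3.

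The list of AP-1 and related leucine zipper genes had 26 members among 104 distal regions (25%), in 11 of 26 genes (42.3%). Of these 26 members 10 were at Bach2 and 4 at Creb1, where 4 of 5 distal regions held the site. Jun and Fosl1 had no distal region at their loci, Fos, Fosb, Fosl2, Junb, Jund and Batf had 2, 3, 2, 3, 2 and 5 with no member among them, and Batf3 had 1 member of 4. The genes of the classic AP-1 subunits thus held no member, but their distal regions were few, where 18.9% of all distal regions held the site. Among the other genes of the list with members were Jdp2 with 2 of 7, Bach1 with 2 of 3 and Atf2 with 2 of 4.

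At genes of cell movement the share was above the 18.9% of all distal regions, and at cytokine and T helper genes it lay nearer to it. The integrin and motility list had 24 of 92 (26.1%), among them Itgb2, the beta chain of LFA-1, with 3 of 7 and a strongest −log10 q of 239.2 and 352.9, and Lgals1, a galectin gene, with 3 of 4. Cytokine and chemokine genes had 13 of 59 (22.0%). Il9 had 2 of 3, with 155.3 and 251.6 at chr13:56476778-56477570 downstream of the gene and 91.8 and 125.3 upstream. Il2, Il4, Il5 and Il13 had 2, 3, 2 and 3 distal regions with no member. T helper 17 genes had 18 of 94 (19.2%), of which 8 were at Rora, T helper 1 genes 10 of 55 (18.2%), follicular helper genes 11 of 60 (18.3%), of which 5 were at Il6ra, and T helper 2 genes 6 of 37 (16.2%).

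The lists of signalling, activation and T cell state genes had shares below the same 18.9%, several of them close to it. Differences among these lists were not tested, and single genes with many distal regions weigh on them. T cell receptor and MAP kinase genes had 30 of 198 (15.2%), with 7 of 27 at Fyn, a kinase near the receptor. Interleukin 2 and STAT5 genes had 19 of 123 (15.5%), with 4 of 15 at Jak1. TNF superfamily genes had 9 of 78 (11.5%). Activation and exhaustion factors had the lowest share of the T cell lists, 12 of 126 (9.52%), with 0 of 19 at Ikzf1 and 1 of 23 at Tox. Pan T cell genes had 38 of 224 (16.96%), and naive and quiescent T cell genes 32 of 193 (16.6%), of which 10 were at Foxp1 and 10 at Bach2. Effector and tissue regulatory T cell genes had 20 of 108 (18.5%) and coinhibitory receptors 10 of 61 (16.4%). B cell genes had 6 of 36 and housekeeping genes 4 of 32. Among loci of other tissues, neuronal genes had 3 of 25, epidermal genes 2 of 21, myeloid genes 1 of 20 and hepatocyte genes 0 of 6.

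**Figure D5:**
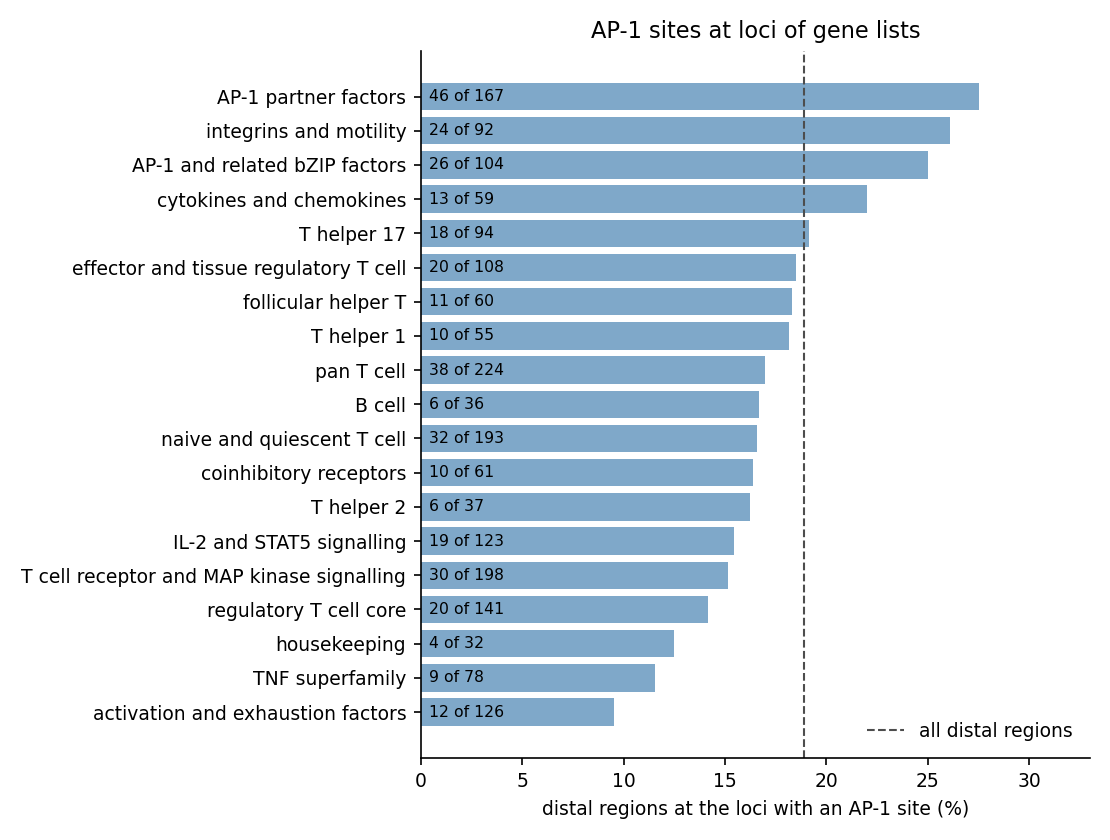
Share of distal replicated regions at the loci of each gene list that hold an AP-1 site (x axis, percent), for lists with at least 30 distal regions (y axis), with the counts printed beside each bar and a dashed line at 18.9% for all distal regions. The AP-1 partner list is highest at 27.5% and the activation and exhaustion list lowest at 9.52%. All lists were written with earlier results of these data known.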

How the data were processed

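ATAC-seq of regulatory T cells gave 1 list of accessible regions for each of 2 libraries, placed on mm10 per the labels; groups and replicate numbers follow the labels. Each region carries a signal, a −log10 p and a −log10 q value and a score that the authors deposited, with a summit offset. The deposited signal has no stated scale or normalization, the deposited −log10 p was not used, and the deposited score was not used because it stops at an upper limit. No aligner, peak caller or version is named in the sources used here. The sequencing depth is unknown, so no counting interval is given, and the caller's values were compared within a list only.

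Analyses used chromosomes 1 to 19, X and Y, leaving out 71 regions of replicate 1 and 84 of replicate 2. Start sites came from GENCODE M21 on GRCm38, and sequence from RefSeq GRCm38. A site counted where it lay wholly within 100 bp of the summit. The replicate 2 value of a member is that of the overlapping region with the highest −log10 q. The genome was cut into tiles of 201 bp, all of them counted, and weighted in GC classes 2 percentage points wide. In all, 32 motifs, 19 one-base variants and 23 gene lists were counted; the one-base variants, the flank classes and the leaving out of overlapping motifs were added after values had been seen. The members and lists were chosen with earlier results of these data known.

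Named regions are the 10 members with the best mean rank of −log10 q, the 5 with the most sites and the 3 best ranked with each composite, of which some are shown. Named genes are the 10 with the most members, the top gene of each list, core, AP-1 family and partner genes with 3 or more members, and Foxp3, Il2ra, Ctla4, Ikzf2, Icos, Tnfrsf18 and Il10. Other genes, among them Mast4, Ikzf1, Lgals1, Irf8 as a locus, the Jun and Fos genes and the T helper 2 cytokines, were named after their values were seen. Alternatives changed the window, overlap, strength limit, distal limit, site letters, repeat filter and library. No test was run; values are medians or shares per library, with mean ± SD over the 2 libraries. The scan was checked on simulated data. Python 3.11.15, numpy 2.4.6, pandas 2.3.3 and matplotlib 3.10.9 were used.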

Additional observations from a re-analysis of the deposited data

How the results depend on the processing

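No paired analysis was possible because the libraries form 1 group and nothing is compared between groups. The AP-1 share of distal regions, 19.2% as the mean of the libraries, was 13.4% with a window of 50 bp, 23.2% with 200 bp, 19.9% at a −log10 q of 5 or more, 21.1% in the 50000 strongest regions of each list, 19.8% beyond 5 kb from a start, and 23.2% with any base in the centre of the site. Leaving out a replicate gave 18.4% and 19.3%. The −log10 q ratio of 1.36 was 1.28 at a −log10 q of 5 or more and 1.21 in the 50000 strongest, where the signal ratio of 1.15 was 1.08. The share of members with a site within 20 bp of the summit, 30.3%, was 40.02% with a window of 50 bp and 25.2% with 200 bp. The changes with the window and the site letters follow from how those alternatives were built, and the cause of the others was not tested.

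The width ratio of 1.02 was not stable. It was 1.02 with windows of 50 and 200 bp and with reciprocal overlap of 50%, 1.01 with protein-coding starts, any centre base or no masked base, 1.00 at a −log10 q of 5 or more, and 1.04 to 1.05 without a replicate. In the 50000 strongest regions it was 0.984, below 1, so members were then the narrower set, and the cause was not tested. The −log10 q and signal ratios stayed above 1 under each of the 11 alternatives. Depth is unknown, and the lists stop at a −log10 q of 1.00, so weaker regions with or without the site were not seen.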
